A study of Mus musculus with 139 samples.

Results

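Cytosolic RNA of mouse embryonic stem cells was compared before and after 4 h of treatment with auxin (IAA). The cell line, AID-FBEXOSC2, carries an auxin-inducible degron on EXOSC2, a subunit of the RNA exosome, and the 4 h cells received 0.5 mM IAA while the 0 h cells received none. Both groups carry the degron allele and were grown with serum and leukemia inhibitory factor on gelatin, so every library comes from the same degron line. IAA-treated cells without the degron were not used here. The cytosol is the RNA released by lysis with 0.15% NP-40. The nuclei left behind were split into a soluble nucleoplasmic fraction (np) and an insoluble fraction holding chromatin and less extractable ribonucleoprotein (chrRNP), and whole-cell lysate (wcl) was sequenced beside them. Each of the 8 groups, 4 kinds of RNA at 0 h and 4 h, has 2 libraries. The labels do not say whether these came from separate cultures, so the p-values measure only the spread between the libraries, which may be technical. The genes described are the 11758 of 52885 in the table with at least 1 FPKM (a fragment density scaled to transcript length and library size) in at least 2 of the 4 cytosol libraries. Of these, 10407 reached 1 FPKM in all 4 libraries. The 799 that reached it in exactly 2 had a median level of 1.06 FPKM, and the 941 genes left out that reached it in exactly 1 had 0.744 FPKM.

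The RNA exosome degrades and trims RNA from its 3' end. In the nucleus, with adaptor complexes, it clears promoter upstream and antisense transcripts, introns and aberrant transcripts, and it trims the ends of small nucleolar RNAs and ribosomal RNA. In the cytoplasm, with the SKI complex, it degrades messenger RNA. Most long noncoding RNAs that the nuclear exosome clears are rare in the cytosol of untreated cells.

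The 4 cytosol libraries sum to 630978 to 680914 FPKM. FPKM carry no library depth, so no counting interval can be given. Replicates of the cytosol correlated with Pearson's r of 0.9495 at 0 h and 0.9567 at 4 h across 7349 genes, which are not independent replicates. All 8 markers of embryonic stem cells fixed for this work were members, and they summed to 2873 and 2834 FPKM at 0 h and 2917 and 3037 FPKM at 4 h. All 7 fibroblast or feeder markers lay below 1 FPKM in every cytosol library, and 4 of them were at 0 in all of them. Of 6 endoderm and 4 trophoblast markers, Sox7 and Eomes were the members. The 10 listed RNAs kept in the nucleus, Malat1 among them, summed to 296 and 277 FPKM in the cytosol at 0 h and to 328 and 314 at 4 h, against 943 and 946 in the 0 h whole-cell lysate. The 13 mitochondrial messenger RNAs made up 0.0615% to 0.0755% of summed FPKM in the cytosol, against 0.710% and 0.740% in the 0 h lysate.

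The messenger RNA of the degron target, Exosc2 (chromosome 2, 31670715 to 31681349 in the mm10 build), was at 2.74 and 2.88 FPKM at 0 h and at 3.11 and 2.35 FPKM at 4 h. The groups overlapped, and the log2 change was -0.04 ± 0.14 (SE; limma, adjusted p = 0.973). The degron acts on the protein, so this transcript does not report its loss.

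Of all 14069 genes tested, 709 (5.04%) were higher at 4 h and 198 (1.41%) lower at an adjusted p under 0.05 (limma on log2(FPKM + 1), Benjamini-Hochberg adjustment). Of the members, 603 (5.13%) rose and 190 (1.62%) fell, and the median member moved by 0.04 on the log2 scale. Of the 603, 298 were below 1 FPKM in both 0 h libraries, so they are members only through their 4 h libraries and had to be higher there. Of the 10733 members at 1 FPKM or more in both 0 h libraries, 260 were higher and 190 lower. The median change was 1.11 among the risen members and -0.63 among those that fell. Genes were named by the largest changes among those with a mean of at least 5 FPKM in the higher group and no overlap, with short RNAs and predicted or clone-named genes passed over. The 12 largest rises by that rule held 4 transcripts that host small nucleolar RNAs (Snhg4, Snhg20, Snhg9, Snhg3) and 3 targets of p53 (Plk2, Btg2, Mdm2), and 274 of the 603 belonged to 5 long noncoding classes. Nkx2-9, a homeobox gene, was at 1.07 and 0 FPKM and then 7.83 and 9.41 (log2 change 2.73). Pomc, the pro-opiomelanocortin gene, was at 0.713 and 0.614 and then 6.73 and 8.08 (2.33), and Ddit4l, related to the mTOR inhibitor gene Ddit4, at 1.60 and 0.895 and then 8.18 and 10.1 (2.19). Among the falls were the kinase gene Pim1 and the pluripotency factor gene Foxd3. All fold changes are on the log2(FPKM + 1) scale, which understates the change of low genes. FPKM are relative to each library, so a change shared by all RNAs would not show unless a spike-in factor was applied, which no source used here says. Fewer cells and less RNA per cell cannot be told apart.

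The split between rises and falls depended on the scaling and on single libraries. After each library was rescaled by its median ratio, 546 members were higher and 297 lower. Without the second 4 h library the counts were 355 higher and 74 lower. Without the first 0 h library 59 were lower, and without the first 4 h library 70 were. Fitted on the 4 cytosol libraries alone, where 2 libraries a group leave little to estimate the spread from, 82 members were higher and 3 lower. Within each of these alternatives, no member called both there and in the fit described here changed sign.

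**Figure D1:**
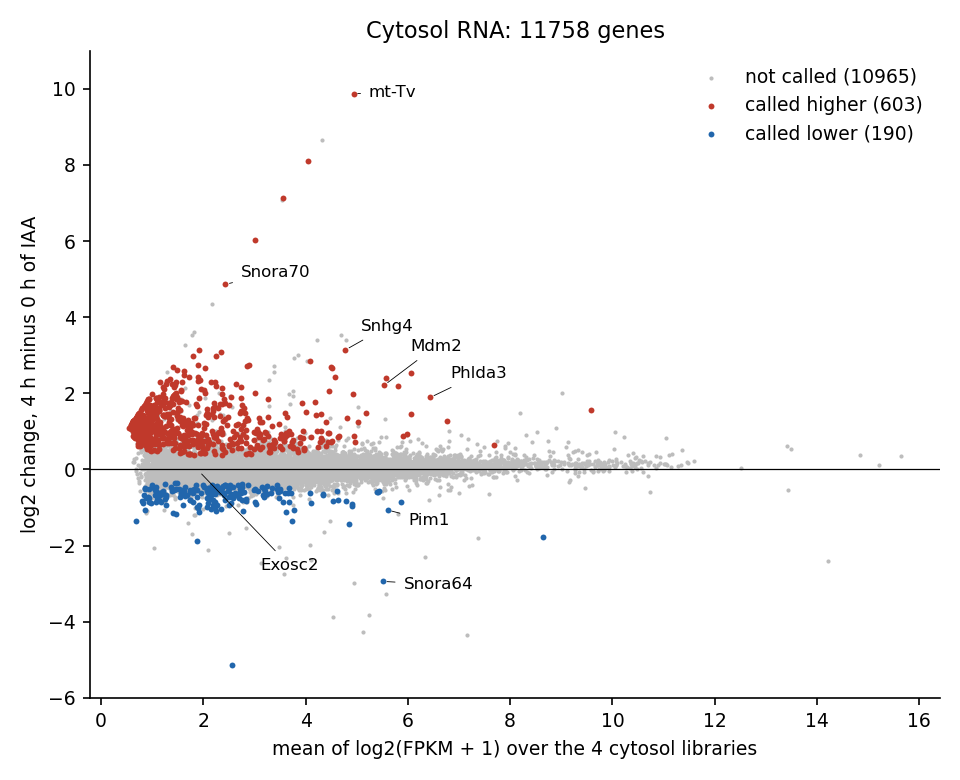
Log2 change in cytosolic RNA, 4 h minus 0 h of IAA, against the mean of log2(FPKM + 1) over the 4 cytosol libraries for all 11758 members. Coloured points are the 603 members called higher and the 190 called lower, and the named points include Snhg4 and Mdm2 above and Pim1 below, with Exosc2 near 0.

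Genes that the transcription factor p53 activates rose as a group. Of 35 targets listed, 31 were members, and 19 of these passed the test upward and 0 downward. The shares over all genes tested were 5.04% and 1.41%. The members moved by a median of 0.85, against 0.04 over all genes tested. Among 30 targets chosen from the 0 h np, wcl and chrRNP libraries alone, 18 rose. This list had been chosen with earlier results of these data known.

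Plk2, a polo-like kinase, stood at 5.82 and 4.91 FPKM at 0 h and at 42.8 and 46.4 at 4 h, and Btg2, an antiproliferative factor, at 7.47 and 8.36 at 0 h and at 52.8 and 59.6 at 4 h. The log2 changes were 2.84 ± 0.18 (SE) for Plk2 and 2.68 ± 0.17 (SE) for Btg2 (limma, adjusted p = 8.06e-06 for both). Neither gene's 0 h and 4 h libraries overlapped. Mdm2, whose product targets p53 for degradation, went from 20.1 and 21.1 FPKM to 96.5 and 102 (log2 change 2.22 ± 0.17 SE, adjusted p = 3.03e-05). Cdkn1a, the cell cycle inhibitor p21, was lower in level, at 1.400 and 1.905 FPKM at 0 h and 7.29 and 7.27 at 4 h, with a log2 change of 1.65 ± 0.13 (SE; adjusted p = 2.88e-05). Ccng1, a cyclin, was at 20.5 and 21.1 FPKM at 0 h and at 57.9 and 62.1 at 4 h (1.49 ± 0.14 SE, adjusted p = 9.48e-05). In all of these the 4 h libraries lay well above the 0 h libraries.

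The apoptosis genes of the list split. Bbc3, which encodes the BH3-only protein PUMA, rose from 6.67 and 5.79 FPKM to 17.99 and 20.7 (log2 change 1.49). Apaf1, the apoptosome scaffold, rose from 5.36 in both libraries to 10.1 and 10.9 FPKM (log2 change 0.85, adjusted p = 0.000271). Bax, which encodes a pore-forming protein of the family that PUMA belongs to, was at 214 and 178 FPKM at 0 h and 251 and 262 at 4 h. It did not pass the test (log2 change 0.39, limma, adjusted p = 0.697). Pmaip1, another BH3-only gene, was at 15.5 and 16.9 and then 24.0 and 25.2 FPKM (0.58, adjusted p = 0.211). Tigar had a log2 change of -0.15 (adjusted p = 0.841) and Plk3 of -0.48 (adjusted p = 0.0889), both without a call. Phlda3, which inhibits Akt, was the most abundant of the risen targets named here, at 46.0 and 42.1 FPKM before and 151 and 183 after (log2 change 1.89). Trp53inp1 (log2 change 1.35), Sesn2 (1.25), Eda2r (1.16), Gdf15 (1.18) and Polk (1.02), which encodes a translesion polymerase, rose too.

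Promoters of these targets were searched for the p53 response element, because 19 members of the list rose. The element was taken as 20 bases without a spacer, with at most 1 mismatch, the same on both strands, from 250 bases before to 50 after each RefSeq start (GRCm38.p6). It was found in 2 of 16 risen targets with a promoter entry and in 0 of 8 that were not called, against 29 of 27025 genes with a promoter entry (0.107%). The elements, in capitals between 5 flanking bases each side, lie at chr11:40755457-40755486 on the minus strand, beginning 195 bases before the Ccng1 start, and at chr17:29090923-29090952 on the plus strand, beginning 51 bases before a Cdkn1a start.
Ccng1: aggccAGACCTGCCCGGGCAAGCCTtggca
Cdkn1a: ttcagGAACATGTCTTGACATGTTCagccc
A match describes these letters and not binding, and the window leaves out elements farther away or within introns.

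Transcripts that host small nucleolar RNAs in their introns, whose spliced exons often serve only as a carrier, were 4 of the 12 largest rises among the genes named by level. Of 20 listed hosts, 16 were members, of which 6 rose (Snhg3, Snhg4, Snhg9, Snhg10, Snhg15 and Snhg20) and 1 fell (Snhg5). Over all genes tested, 5.04% rose and 1.41% fell. The median over these members was 0.44, against 0.04 over all genes tested. Among 17 hosts chosen by the other 0 h libraries, the counts were also 6 and 1. The other 9 members were not called. Snhg7 is among them, but its entry is a 139-base gene annotated as a small nucleolar RNA.

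Snhg4 (chromosome 18, 35553371 to 35558316) had the largest of these 12 rises, from 9.55 and 7.10 FPKM to 77.4 and 83.8 FPKM (log2 change 3.14 ± 0.17 SE, adjusted p = 3.82e-06). Snhg20 (chromosome 11, 117076790 to 117078955) was at 10.0 and 6.48 FPKM at 0 h and at 55.5 and 58.0 at 4 h (2.67 ± 0.25 SE, adjusted p = 9.56e-05), and Snhg3 at 28.0 and 23.0 and then 115 and 123 FPKM (2.18 ± 0.20 SE, adjusted p = 7.52e-05). Both 4 h libraries of each lay above both 0 h libraries. Snhg9, which is annotated as antisense, was more variable, at 20.8 and 34.8 FPKM at 0 h and 190.4 and 134 at 4 h (2.53 ± 0.44 SE, adjusted p = 0.00538). Snhg15 (1.02) and Snhg10 (1.86) made smaller rises. Snhg10 was called with all libraries, but not without the second 0 h library or either 4 h library (adjusted p of 0.0693 to 0.103), and Snhg9 not without the first 0 h library (adjusted p = 0.0555).

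Other abundant hosts were not called. Snhg1 was at 79.0 and 82.1 FPKM at 0 h and 78.1 and 82.0 at 4 h, with a log2 change of -0.01 (adjusted p = 1). Snhg12 (-0.08), Snhg6 (-0.11) and Zfas1 (-0.10) were likewise not called, and Gas5, at 74.4 and 79.0 and then 109 and 113 FPKM, had a log2 change of 0.53 that missed the threshold (adjusted p = 0.133). Snhg5 was lower, at 51.9 and 49.99 FPKM at 0 h and 31.2 and 35.3 at 4 h, with a log2 change of -0.60 (adjusted p = 0.0405), a call that was lost when any 1 cytosol library was left out (adjusted p of 0.113 to 0.247). None of the small nucleolar RNA members within the risen hosts was called. Snora74a of Snhg4 had a change of -0.41, Snora73b of Snhg3 of -0.20, Snora78 of Snhg9 of 0.13 and Scarna13 of Snhg10 of -0.01. Gm26083 of Snhg20 was at 41.8 and 59.5 and then 87.0 and 81.0 FPKM (0.74, adjusted p = 0.248). Snora9 of Snhg15 was listed near 0 and at 23.5 FPKM at 0 h and at 50.4 and 26.5 at 4 h (adjusted p = 0.450). Within the uncalled host Snhg1, Snord22 was called higher, at 89.6 and 53.5 and then 157 and 180 FPKM (1.27, limma, adjusted p = 0.0357).

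**Figure D2:**
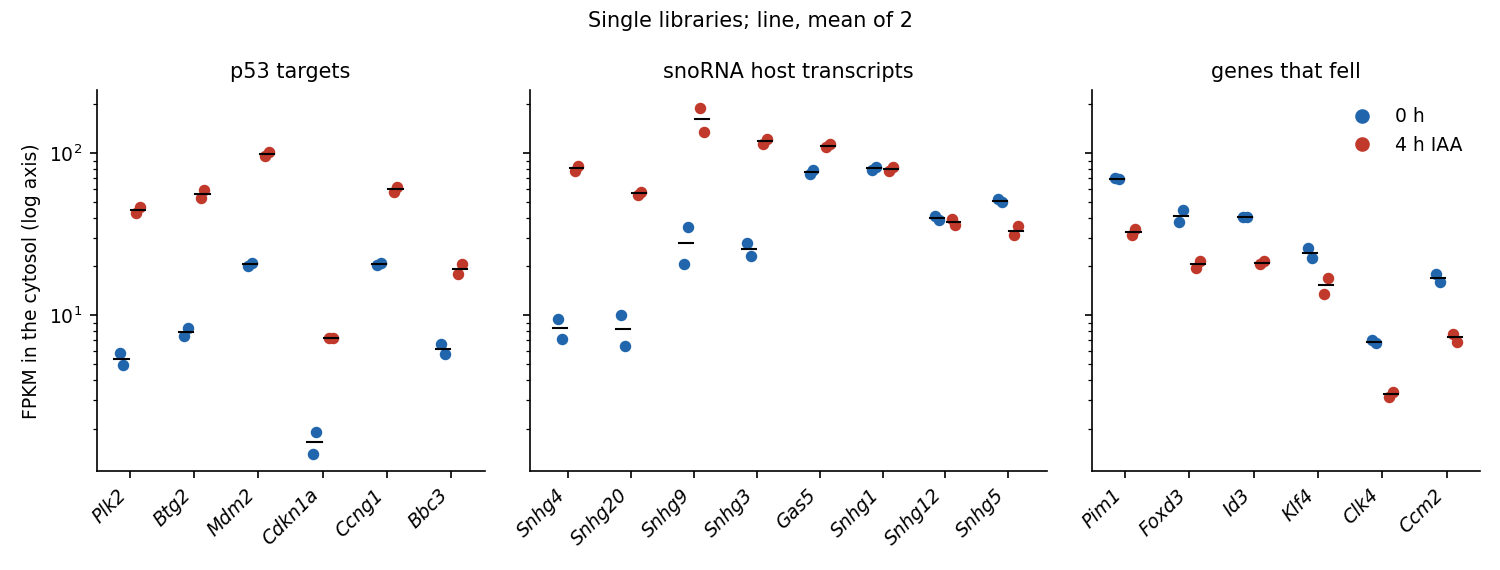
FPKM in single cytosol libraries on a log axis, 0 h in blue and 4 h of IAA in red, with a line at the mean of 2, for 6 p53 targets, 8 small nucleolar RNA hosts and 6 genes that fell. The 4 h points of Snhg4 lie near 80 FPKM, while those of Snhg1 coincide with the 0 h points.

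The hosts that rose and those that did not were compared at their start sites, a comparison looked at after the values had been seen. Many hosts in vertebrates begin with a pyrimidine, a C or a T, as do ribosomal protein genes, and transcripts with a C followed by a run of pyrimidines are translated under growth control. The 30 bases around each RefSeq start (15 before, 15 from the start on) are shown for 3 risen hosts and 4 that were not called, with the first 5 transcribed bases in capitals (GRCm38.p6).
Snhg20: cttcagttccggccgGAAGTgcatttgcag
Snhg9: tgcggactttccctcGCCGAagccgcgccc
Snhg15: cgctgctgtgaccgtAACTTtaagcacacg
Snhg1: gttgttcttgtcggcCTCATttttccttgt
Snhg12: ggccgttctcagtccTTTCTcgcttcatcc
Snhg8: gcaccgttcagaagtCTCTTtggctgcgat
Zfas1: ttgactgcgccccggGCGGCcgcaggtctc
They lie at chr11:117076768-117076797 (plus strand, Snhg20), chr17:24719951-24719980 (minus, Snhg9), chr11:6528746-6528775 (minus, Snhg15), chr19:8723472-8723501 (plus, Snhg1), chr4:132308663-132308692 (plus, Snhg12), chr3:123508322-123508351 (minus, Snhg8) and chr2:167062919-167062948 (plus, Zfas1). Of those not called, Snhg1, Snhg12 and Snhg8 are shown for their pyrimidine start and Zfas1 because it begins with G. The first base was C or T in 0 of 5 risen hosts and in 6 of 8 that did not rise, where a host counted if any of its starts began so, against 30.04% of 32851 RefSeq starts. Counted by start, it was 6 of 10 for the hosts that did not rise: Gas5 and Snhg17 have 1 start each that begins with G, as do Zfas1 and Snhg5. A C followed only by pyrimidines in the first 5 bases was found in 3 of 15 host starts, of Gas5, Snhg7 and Snhg8, against 2.505% of all starts. RefSeq starts lie away from the table's gene start by 753 bases for Snhg3, 559 for the second Gas5 start and 2259 for Snhg7. The Snhg7 entry is a 139-base gene annotated as a small nucleolar RNA. Its value does not measure the host transcript, though Snhg7 is counted above among the hosts that did not rise. Snhg4 is not among these hosts. The counts describe sequences of a few genes, and no test was made.

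Long noncoding transcripts rose in the cytosol more often than coding transcripts. To avoid choosing genes by their 4 h level, the shares were counted in the 12577 genes with at least 1 FPKM in at least 2 of the 6 np, wcl and chrRNP libraries at 0 h. Of these, 404 were higher (3.21%). The 5 long noncoding classes (antisense, bidirectional promoter, lincRNA, processed transcript and TEC, loci that the annotation sets aside for experimental follow-up) held 762, of which 140 were higher (18.4%) and 4 lower, against 237 higher of 10363 coding genes (2.29%). By class, 40 of 98 antisense RNAs (40.8%), 9 of 11 bidirectional promoter RNAs (81.8%), 44 of 183 lincRNAs (24.0%), 21 of 89 processed transcripts (23.6%) and 26 of 381 TEC genes (6.82%) rose. Among members, 274 of 530 genes of the 5 classes rose, and a member that passed the level filter only through its 4 h libraries had to be higher there. Of the 206 at 1 FPKM or more in both 0 h libraries, 49 rose and 4 fell. No source used here says whether reads were counted by strand, so an antisense RNA and its partner cannot be told apart.

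Coding members within 1000 bases of the risen noncoding transcripts were counted, against 2.93% higher and 1.78% lower over all coding members. Of the 77 risen antisense RNAs, 71 have such a neighbour, and of their 78 coding neighbours 1 rose and 1 fell. The neighbours moved by a median of -0.08. All 16 bidirectional promoter RNAs have such a neighbour, and 0 of their 16 neighbours passed the test upward and 1 downward. Of 50 coding neighbours of risen TEC genes 2 rose and 3 fell, of 40 of risen lincRNAs 0 rose and 2 fell, and of 31 of risen processed transcripts 1 rose and 2 fell. Platr4, a long noncoding RNA named for its association with pluripotency, went from 2.18 and 2.16 to 10.6 and 16.3 FPKM (log2 change 2.16, adjusted p = 1.4e-05).

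Of 11 members in a list of long noncoding RNAs retained in the nucleus, Dleu2, Tug1, Nespas and Neat1 rose, against 5.04% over all genes tested. All 11 were at 1 FPKM or more in both 0 h libraries, where 49 of 206 members of the 5 long noncoding classes rose. Neat1, the scaffold of paraspeckles, was at 7.31 and 4.70 FPKM in the cytosol at 0 h and 13.5 and 14.7 at 4 h (log2 change 1.13, adjusted p = 0.00417), beside a change of 2.71 in chrRNP. Tug1 went from 2.65 and 2.88 to 4.95 and 5.73 FPKM (0.75) and Dleu2 from 2.64 and 2.13 to 8.56 and 6.49 (1.33). Malat1, the most abundant of them, at 152 and 144 and then 164 and 169 FPKM, was not called (0.17, adjusted p = 0.804), nor was Rian (0.04). The nuclear RNAs summed to 296 and 277 and then 328 and 314 FPKM, and the part of nuclear carry-over in these rises was not tested.

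**Figure D3:**
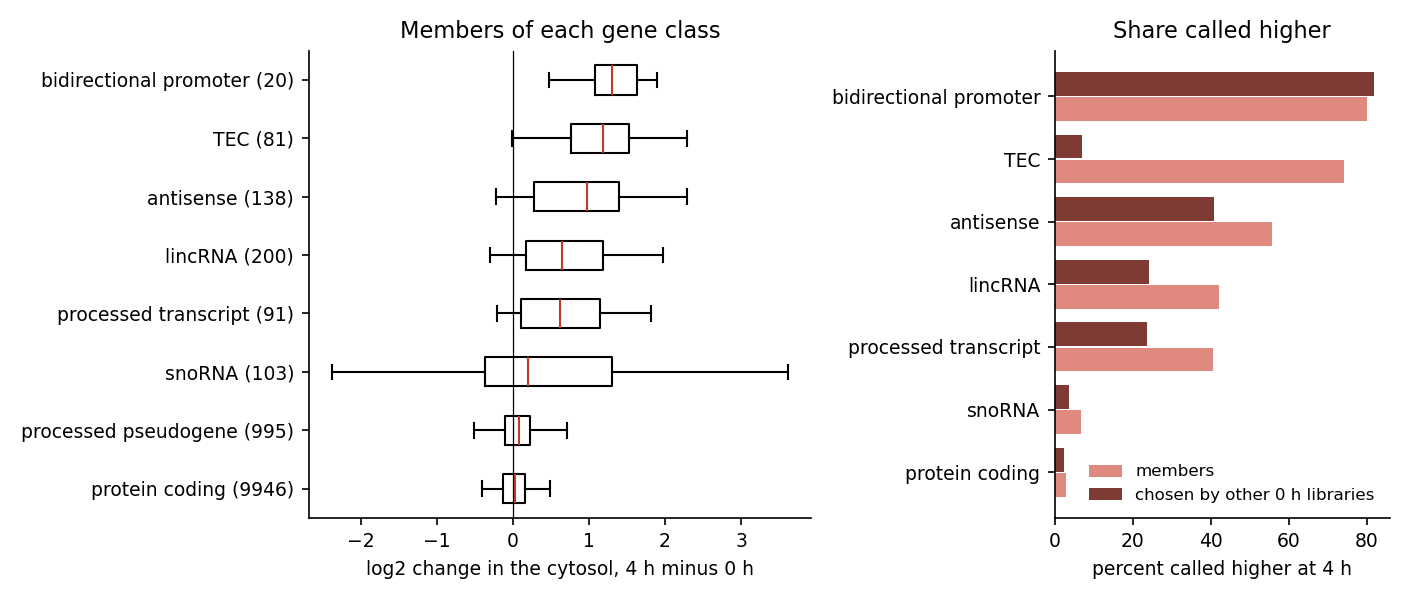
Left, the log2 change in the cytosol of members by gene class, with the median in red and whiskers at the 5th and 95th percentiles. Right, the percent called higher at 4 h among members and among genes chosen by the other 0 h libraries, where 40.8% of antisense RNAs and 2.29% of coding genes rose.

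Members called higher were most frequent among transcripts with a high chrRNP level relative to the lysate at 0 h. Members called lower were also more frequent there than in the lowest bin. Genes were ranked by log2(FPKM + 1) in chrRNP minus that in wcl at 0 h and split into 5 equal bins. Among the 10733 members at 1 FPKM or more in both 0 h cytosol libraries, a restriction made after the values had been seen, the share called higher was 0.233%, 0.839%, 1.58%, 2.98% and 6.47% from the lowest to the highest bin, and the share called lower 0.186%, 0.606%, 1.68%, 3.03% and 3.35%. Among coding genes of this kind, the share higher went from 0.264% to 4.76% and the share lower from 0.212% to 3.44%. Their median change was 0.089 in the lowest bin and -0.022 in the highest. Over all members it was 0.255%, 0.851%, 2.47%, 3.49% and 18.6%, where members that entered through their 4 h libraries had to rise. The highest bin of all members runs from -0.478 to 7.675, so it also holds genes that were lower in chrRNP than in the lysate. The median 0 h level in the cytosol fell across the bins of all members, from 49.999 to 1.70 FPKM, and its part in the order was not tested. The spread of each gene was estimated from all 16 libraries, so differences between chrRNP replicates also widen the SE of the cytosol change. Nanog, at 22.2 and 49.3 FPKM in chrRNP at 0 h, had an SE of 0.28 for its cytosol change and no call. The bins use the same 0 h chrRNP libraries, and the part of this spread in the order was not tested. Among members with a mean of at least 5 FPKM in the lysate at 0 h, the share was 0.338% in the lowest bin and 5.199% in the highest. Ranked by np over wcl, the share was 1.06% in the lowest bin, 8.97% in the fourth and 8.04% in the highest.

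Short coding genes rose more often than long ones. In 5 equal bins of gene span, from shortest to longest, 6.38%, 2.77%, 2.41%, 1.41% and 1.66% of coding members were higher. Among those at 1 FPKM or more in both 0 h libraries the shares were 4.02%, 2.06%, 2.01%, 1.06% and 1.48%. In the shortest bin of all coding members, 75 of 319 rose in the highest bin of chrRNP over wcl and 6 of 711 in the lowest. In the longest bin these were 19 of 684 and 0 of 93. Genes under 3000 bases were 68 of the 291 risen coding members (23.4%), 6 of the 177 that fell (3.39%) and 678 of all 9946 (6.82%). Of these 291, 201 were at 1 FPKM or more in both 0 h libraries. H2afj, a histone H2A variant gene, went from 17.8 and 21.9 to 94.8 and 126 FPKM (log2 change 2.41, adjusted p = 0.000157). Oxld1 went from 2.44 and 0.770 to 8.11 and 12.0 FPKM (2.14), and Tmem203 from 4.39 and 1.99 to 12.6 and 18.3 (2.01). Among 60 replication-dependent histone members, Hist1h4i and Hist2h2be rose and 0 fell, against 5.04% higher over all genes. Hist2h2be, at 0.294 and 0.280 FPKM at 0 h, is a member only through its 4 h libraries. Hist1h4i was at 434 and 460 FPKM at 0 h and 1270 and 1369 at 4 h (1.56), a call lost without the first 0 h or the second 4 h library. Ccdc85b, a gene of under 3000 bases, rose from 8.96 and 5.07 to 17.5 and 20.7 FPKM (1.37, limma, adjusted p = 0.00225). Its changes were 0.02 in the lysate and 0.02 in total RNA, and it was chosen after its values were seen. Its cytosol change did not differ by the test from that in the lysate (difference 1.35, limma, adjusted p = 0.209) or in chrRNP (1.16, adjusted p = 0.243).

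**Figure D4:**
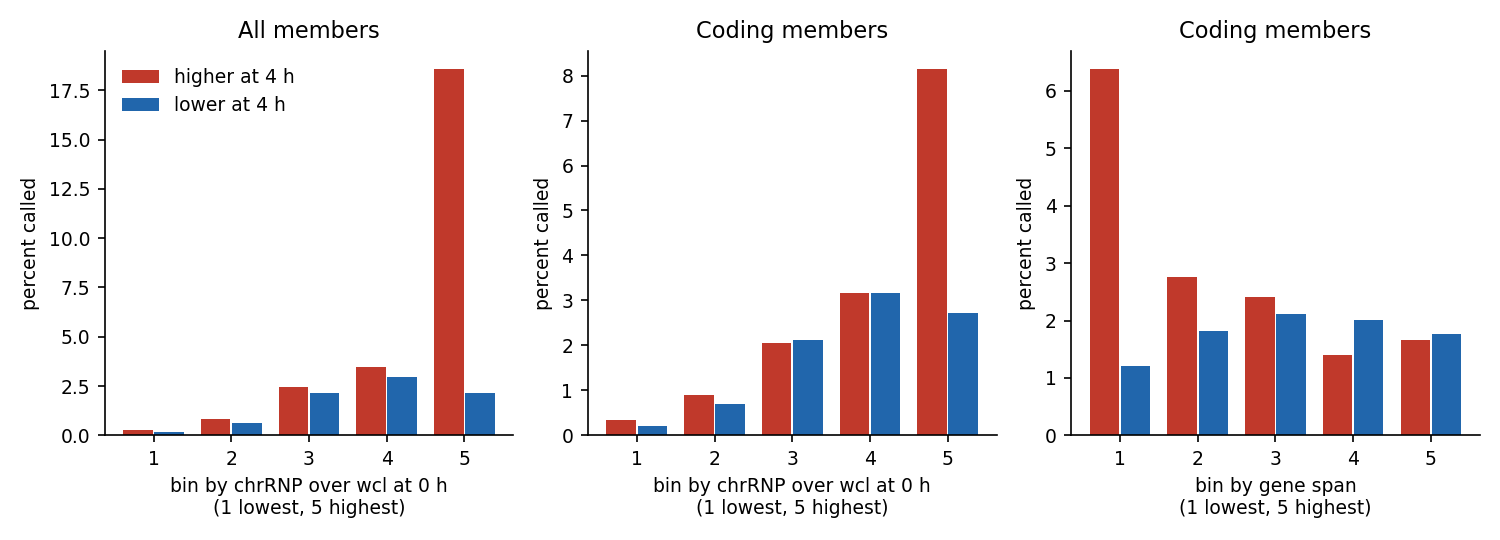
Percent of members called higher (red) and lower (blue) at 4 h, by 5 equal bins of chrRNP over wcl at 0 h for all members and for coding members, and of gene span for coding members. The highest bin of chrRNP over wcl stands at 18.6% higher for all members and the shortest bin at 6.38%.

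Of the 190 falls, 177 were in coding genes, which are 9946 of the 11758 members. The share that fell was 1.78% of coding members and 1.62% of all members. Pim1, a serine/threonine kinase gene downstream of LIF and STAT3, had 69.9 and 69.0 FPKM at 0 h and 31.1 and 34.2 at 4 h (log2 change -1.07, adjusted p = 0.0100). Foxd3 was at 37.6 and 44.7 and then 19.6 and 21.6 FPKM (-0.96, adjusted p = 0.00691), and Ccm2, a scaffold protein gene, at 17.99 and 16.01 and then 7.70 and 6.88 (-1.12, adjusted p = 0.00307). Neither pair of groups overlapped. Zfp819 (-1.09), Orai1 (-1.08), a calcium channel subunit, Adnp2 (-1.06), Klhl8 (-1.05), Sertad3 (-1.03), Pskh1 (-1.002) and Rit1 (-0.92) were the other coding genes among the falls named by level, beside Lars2. Pim1 and Rit1 lost their call whichever cytosol library was left out (adjusted p of 0.0526 to 0.076 for Pim1), and Foxd3 and Orai1 lost it without the first 4 h library or 1 of the 0 h libraries. Ccm2, Zfp819, Klhl8, Adnp2, Sertad3 and Pskh1 kept it in every such fit.

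Pluripotency and signalling genes were counted against 5.04% higher and 1.41% lower over all genes tested. Of 38 core and naive pluripotency members, 0 rose and 3 fell: Prdm14 (6.71 and 6.83 to 3.68 and 4.03 FPKM, -0.68), Klf4 (26.2 and 22.5 to 13.5 and 17.1, -0.64) and Spry4 (37.0 and 27.02 to 18.3 and 17.5, -0.79), an inhibitor of receptor tyrosine kinase signalling. Klf4 and Spry4 each lost the call in 3 of the 4 fits that left out 1 cytosol library, and Prdm14 in none. The median change of the list was -0.15, and 11 of its 38 members lay above 0, against 6671 of all 11758. Pou5f1 (0.24) and Sox2 (0.10) were not called, and Nanog stood at 157 and 161 and then 97.8 and 108 FPKM without passing the test (-0.62, adjusted p = 0.300). In the Nodal, BMP and Id list, 2 of 18 members lay above 0. Nodal, a ligand of the TGF-beta family, rose from 6.38 and 5.07 to 11.8 and 12.3 FPKM (0.96), while Bmp4 (-0.76), the BMP target Id3 (40.6 and 40.1 to 20.6 and 21.5, -0.91) and the BMP inhibitor Smad6 (-0.86) fell. Otx2 (-0.81), Zfp296 (-0.88) and Cited2 (-0.85) also fell. Of these, Bmp4, Id3, Zfp296 and Cited2 lost the call whichever library was left out, and Otx2 in 3 of 4 such fits.

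The stress and regulator lists are given beside the same 5.04% higher and 1.41% lower over all genes. Of 27 members in the list of ATF4 and amino acid stress genes, Ddit4, an mTOR inhibitor that p53 also activates, rose from 17.0 and 12.2 to 56.2 and 63.6 FPKM (1.98, adjusted p = 0.000289), and Chac1, which degrades glutathione, fell (-1.14). Of 19 unfolded protein response members, Xbp1 (-0.66) and Dnajb9 (-0.85) fell and 0 rose. Of 27 immediate-early members, Fosl1, a member only through its 4 h libraries, rose (1.03) and Klf6 (-0.73) and Dusp1 (-0.52) fell. Splicing kinase genes Clk4 (6.99 and 6.75 to 3.15 and 3.36 FPKM, -0.89) and Clk2 (-0.62) were the 2 calls of 47 splicing members, and in the RNA polymerase II list of 48, Pcf11 rose (0.53) and Ccnt2 (-0.85) and Mepce (-0.61) fell. Ccne2 was the 1 call of 34 G1/S members (-0.63). Leaving out any 1 cytosol library ended the calls of Chac1, Xbp1, Klf6, Dusp1, Clk2, Pcf11 and Mepce, and those of Dnajb9, Fosl1 and Ccne2 were lost in 2 or 3 of the 4 such fits. Neurod1, a neural marker, rose from 5.23 and 4.76 to 13.7 and 15.3 FPKM (1.37), while other neural markers stayed low: Sox1 lay between 1.48 and 2.03 FPKM in the 4 libraries.

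The exosome's own genes and the bulk of abundant cytosolic messenger RNA did not pass the test. The counts stand beside 5.04% higher and 1.41% lower over all genes tested. At those shares 0 calls would be common in the shortest lists, while lists of 73 or 75 members would hold some. Calls were rarer among members in the lowest bin of chrRNP over wcl, where 0.255% were higher and 0.170% lower. Of 11 exosome subunit members, 0 were called: Dis3, the catalytic subunit, was at 30.2 and 26.8 and then 31.6 and 35.6 FPKM (0.23, adjusted p = 0.697), and the largest change, of Exosc6 at 15.2 and 28.3 and then 45.6 and 48.7, had an adjusted p of 0.216. Of 16 nuclear cofactor members 1 was called: Zfc3h1, of the poly(A) exosome targeting connection, rose (0.94, adjusted p = 0.000393). The SKI helicase Skiv2l was not called (0.25, adjusted p = 0.375), and of 45 members among other decay factors Lsm7 rose (0.77), without a call when the second 0 h or second 4 h library was left out. The lists of cytosolic ribosomal proteins (75 members, median change 0.15), translation factors (42, 0.11), ribosome biogenesis (56), nuclear oxidative phosphorylation (73, 0.14), messenger RNA export (36), mitotic genes (30), heat shock chaperones (20), secreted proteins (23), RNA sensing and interferon genes (14), housekeeping messenger RNAs (26), cytoplasmic exosome partners (6), abundant polymerase III and RNP RNAs (12), endoderm and trophoblast markers (7) and fibroblast markers (3) had 0 calls in each direction. Over all members, 1981 had an unadjusted p under 0.05, so a list without calls does not show that its genes were unchanged.

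Ribosomal RNA and genes whose spans can collect its reads varied between libraries. Lars2, a leucyl-tRNA synthetase gene whose annotated span can collect ribosomal RNA reads, was at 14.7 and 27.6 FPKM at 0 h and 10.96 and 4.71 at 4 h (-1.36, adjusted p = 0.0323), and mt-Rnr1, the mitochondrial small ribosomal RNA, at 37.8 and 56.9 and then 22.7 and 12.0 (-1.43, adjusted p = 0.0188). The ribosomal RNA-like gene AY036118 took 4.62% and 10.3% of summed FPKM at 0 h and 2.27% and 0.668% at 4 h, without a call (adjusted p = 0.0625). Gm42418 fell from 661 and 827 to 239 and 196 FPKM (-1.77, adjusted p = 0.00306), while Gm26917, at 3131 and 2216 and then 3286 and 2724, was not called. Of 9 members in a list of mitochondrially encoded transcripts that does not hold the transfer RNA mt-Tv, mt-Rnr1 and mt-Rnr2 (-0.85) fell and 0 rose. Over all genes tested, 1.41% fell. Of 3 mitochondrial transfer RNA members, 1 was called higher, mt-Tv. The part of leftover ribosomal RNA in these falls was not tested. Neither Lars2 nor mt-Rnr1 was called without the second 0 h or the second 4 h library (adjusted p of 0.222 and 0.241 for Lars2).

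Many short RNA genes were listed at 0 in some libraries. Snord11 was listed at 0 in both 0 h libraries and at 280.3 and 266 FPKM at 4 h, Snord14e at 0 and then 143 and 134, Snora70 at 0 and then 48.0 and 16.3, and the mitochondrial transfer RNA mt-Tv at 0 and then 915 and 962. No fold is given against 0. Snord11, Snord14e and mt-Tv lost the call whichever library was left out. Snora64, an H/ACA small nucleolar RNA, was detected at 140.1 and 112 FPKM at 0 h and 12.9 and 18.6 at 4 h (-2.94, adjusted p = 0.000348).

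The cytosol was compared with the other RNA of the same cells by testing the difference of the 2 changes. Against the whole-cell lysate, 3 of 14069 genes (0.0213%) differed in either direction, of which 1 is a member, the miRNA gene Gm22426, listed at 0 in every fraction library but the 4 h cytosol (68.8 and 60.2 FPKM). At an unadjusted p under 0.05 there were 1452 members. The median difference over members was 0.28, it was -0.009 after rescaling, and single differences are to be read against it. Snhg4 rose by 3.14 in the cytosol and 1.75 in the lysate, a difference of 1.396 that did not pass (adjusted p = 0.0950).

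Against chrRNP, 19 genes (0.135%) differed, of which 14 are members, 4 with a more positive change in the cytosol and 10 with a more negative one. Snhg4 was the host with a called difference (1.85, adjusted p = 0.0146): its chrRNP levels were 35.5 and 40.5 FPKM at 0 h and 88.7 and 101 at 4 h. Rbm3, a cold-inducible RNA-binding protein gene, stayed at 17.4 and 17.9 and then 17.8 and 18.6 FPKM in the cytosol while chrRNP went from 7.34 and 10.0 to 25.3 and 27.4, a difference of -1.47 (adjusted p = 0.0262). Apaf1 (-1.06), Wdr35 (-1.30) and Hyal1 (-1.30) also changed more in chrRNP. These counts rest on the chrRNP libraries: without its second 0 h library, 62 members were higher and 2555 lower, and the median difference went from -0.22 to -0.42. Without the first chrRNP 0 h library, 6 were higher and 6 lower, and the median difference was 0.02.

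**Figure D5:**
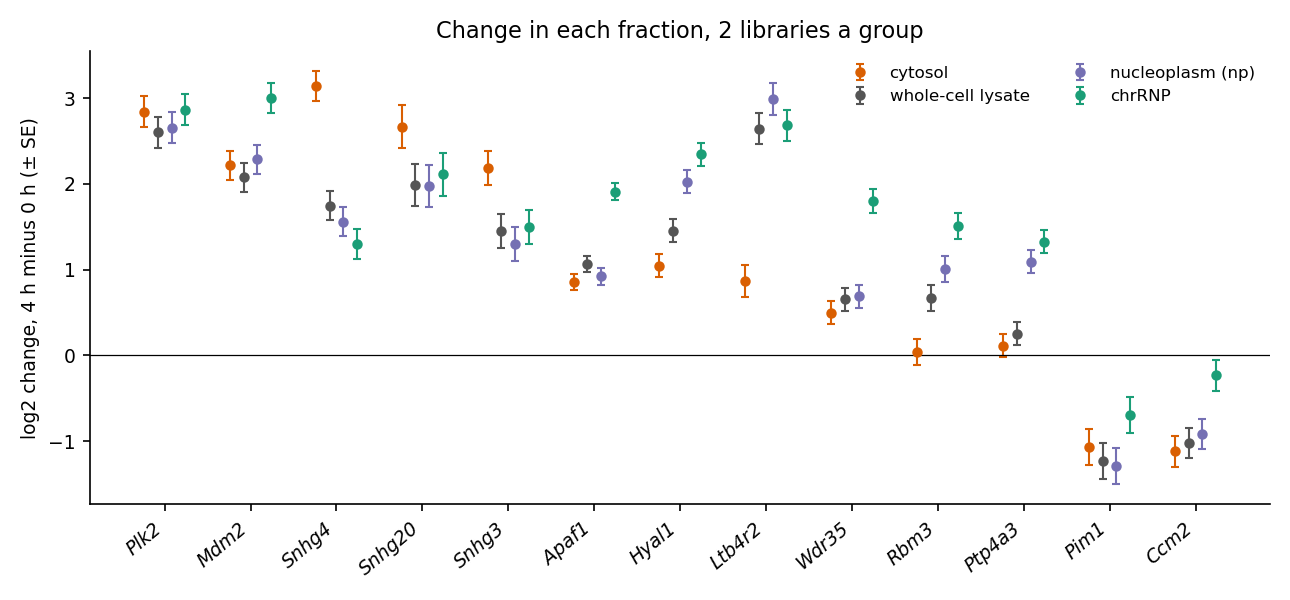
Log2 change from 0 h to 4 h (± SE) in cytosol, whole-cell lysate, np and chrRNP for 13 genes, 2 libraries a group. Plk2 and Mdm2 rise in all 4, Snhg4 rises most in the cytosol, and Rbm3 lies near 0 in the cytosol and at 1.51 in chrRNP.

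Most members called in the cytosol lay on the same side of the median change in libraries the fit did not use. In separate total RNA after 4 h of IAA, 592 of the 603 risen members lay above the median change of all members (-0.32) and 171 of the 190 that fell lay below it. In nascent RNA, 451 of the risen lay above the member median and 132 of the fallen below. Of the 603 risen members, 298 are members only through their 4 h cytosol libraries, and the counts were not repeated without them. The 274 risen noncoding members had median changes of 1.27 in the cytosol, 1.02 in total RNA and 0.12 in nascent RNA, whereas the 291 risen coding members had 0.87, 0.58 and 0.43. The 2 sets differ in how they entered: 49 of the 274 and 201 of the 291 were at 1 FPKM or more in both 0 h cytosol libraries. For p53 targets the median in nascent RNA was 1.17. Plk2 and Mdm2 rose by 3.24 and 3.38 in nascent RNA, while Snhg4 (-0.21), Snhg20 (-0.41) and Snhg3 (-0.22) did not rise there. Of the other risen hosts, Snhg9 (1.44) and Snhg10 (1.04) had positive changes there. The median over the 16 host members was -0.20 in nascent RNA. These changes are given as values and carry no test.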

How the data were processed

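The FPKM values of the fractions and total RNA tables are as deposited by the authors; per the submitters' processing notes TopHat2 2.0.11, Cufflinks 2.0.2, bedtools and the mm10 build were used. Nascent RNA is in RPKM as deposited, with Trim Galore and dm6 also named in the notes. Spike-in RNA was added per the labels' protocols; the sources used here do not say whether a factor was applied or how strand was counted. Of the series' 139 samples, 16 fraction libraries (8 groups of 2) entered the fit. Changes were tested with limma 3.58.1 (R 4.3.3, with trend, all 16 libraries) on log2(FPKM + 1) for the 14069 genes at 1 FPKM or more in at least 2 of the 16, with Benjamini-Hochberg adjustment and a threshold of 0.05. On simulated data of 14069 genes for cytosol 4 h against 0 h, 59% of changes of size 1 and 93% of size 2 were recovered, with 10 unchanged genes called. The changed genes were drawn from those at 5 FPKM or more in the 0 h cytosol, with the same spread in every fraction. These rates therefore do not cover genes of lower level or a spread that differs between fractions. The low FPKM values did not resolve into steps of whole reads, so no count test was run. Genes were named by rule: Exosc2; the 12 largest rises and falls called without overlap and with a mean of at least 5 FPKM, short RNAs and predicted genes passed over; the 4 smallest p of each of 31 lists; 2 of each class; and up to 6 of each interaction and direction. Other genes were named after their values were seen, and the members and lists were chosen with earlier results of these data known. Start sites and promoters are RefSeq's (GRCm38.p6). Alternatives were another pseudocount, filters, rescaled libraries, other fits and leaving out each library.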

Additional observations from a re-analysis of the deposited data

Results flagged for a closer look

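For 15 results the change in the cytosol differed from that in another fraction, tested by the interaction term of limma (adjusted p under 0.05; 2 libraries a group). Against the whole-cell lysate this was Gm22426 (difference 6.03), a miRNA gene listed at 0 in every fraction library outside the 4 h cytosol.

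Against chrRNP, genes with a more positive change in the cytosol were Gm22426 (6.03), Snhg4 (1.85), Gm13532 (1.43), a pseudogene at 0 in both 0 h cytosol libraries and at 2.03 and 1.39 FPKM at 4 h, and Gm26917 (14.27), which is listed at 19496 and 15489 FPKM in chrRNP at 0 h and at 0 at 4 h. Those with a more negative change were mt-Tm (-10.56), listed at 0 in chrRNP at 0 h, Snora64 (-4.10), Ltb4r2 (-1.82), Gm37795 (-1.63), Rbm3 (-1.47), Wdr35 (-1.30), Hyal1 (-1.30), Ptp4a3 (-1.21), Cdc42bpg (-1.16) and Apaf1 (-1.06). For Gm26917, mt-Tm, Gm13532 and Gm22426 a listed 0 may be a failed estimate, and no fold is read from it.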

How the results depend on the processing

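Of 603 higher and 190 lower cytosol members, 123 lower members were left with no filter on low values, 297 after rescaling, and 82 higher and 3 lower with only the 4 cytosol libraries fitted. Leaving out 1 cytosol library gave 355 to 481 higher and 59 to 140 lower. The replicate block gave 622 higher and 201 lower. Deviations of same-numbered cytosol libraries at 0 h and 4 h correlated with r = 0.017 (wcl -0.015, np 0.033, chrRNP 0.23). The labels do not say whether same-numbered libraries are paired, and these correlations cannot settle it. Of the 793 calls, 579 were shared with the rescaled fit, 71 with the cytosol-only fit and 410 to 488 with fits leaving out 1 library; 0 calls changed sign. Of 112 named calls, 81 to 85 held without 1 library and 23 with only the cytosol libraries fitted.

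For the difference from wcl (1 higher, 0 lower), the higher count was 2 with a pseudocount of 0.1, 4 with no filter, 5 with only the compared libraries and 2 with no trend; after rescaling 2 were lower and the median was -0.009. Leaving out 1 library gave 1 to 4 higher and 0 to 3 lower. For the difference from chrRNP (4 higher, 10 lower), rescaling gave 23 lower and a median of -0.039, and the compared libraries alone 1 lower. Leaving out 1 library gave 2 to 62 higher, 3 to 2555 lower and a median of -0.415 to 0.024.

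The highest bin of chrRNP over wcl was called higher in 18.6% of members, in 8.04% by np over wcl, 16.6% with a pseudocount of 0.1 and 5.199% at a lysate mean of 5 or more and 6.47% at 1 FPKM or more in both 0 h libraries, the last 2 chosen after seeing the data. Uncalled genes changed sign: Rian (-0.004 rescaled, -0.085 to 0.16 leaving out 1 library), Sox2 (-0.034 to 0.24), Snhg1 (-0.044 to 0.026), Gm26917 (-0.066 to 0.433), Snhg7 (-0.163 to 0.545), Exosc2 (-0.188 to 0.108), Scarna13 (-0.175 to 0.157), Snora73b (-0.549 to 0.144) and Snora78 (-0.466 to 0.726). Depth is unknown. The cause of each change was not tested.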
